A study of Mus musculus with 4 samples.

Results

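The comparison described here sets the array labelled with loss of Mel18 in intestinal epithelium (Mel18ΔIEC) against the wild-type array (WT), which are 2 of the 4 arrays of the series. It takes the log2 of each deposited intensity and subtracts wild type from Mel18, so a positive difference is a higher value on the Mel18-labelled array. All probe sets assigned to exactly 1 gene symbol entered, 34945 of the 45037 in the table, and they represent 18193 genes. A gene was represented by its brightest probe set over the 4 arrays, and 11862 genes reached the floor, which is the median of all values in the table (33.4 intensity units), on at least 1 of the 2 arrays. A gene is called higher or lower below when its values differed at least 2-fold and the higher one reached the floor.

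Mel18, whose gene symbol is Pcgf2, is a RING finger subunit of Polycomb repressive complex 1, and Bmi1 is its close relative in that complex. The complex ubiquitinates histone H2A and holds developmental genes and the Cdkn2a locus in a silent state. In the colon the epithelium forms a barrier of absorptive colonocytes, mucus-producing goblet cells and crypt stem cells, and during colitis it also takes up interferon-driven programmes that include antigen presentation, antiviral proteins and chemokines.

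Both groups were C57BL/6 mice of 6 to 8 weeks, described as sex-matched, that had received azoxymethane at 10 mg/kg and, after 5 days, 3.5% dextran sulfate sodium for 5 days, so the wild-type reference is itself carcinogen-treated and colitic. Cells were released from the colon with 5 mM EDTA at 37°C for 20 min on day 12, and 200 ng of RNA went onto each array. The other arrays of the series carry loss of Bmi1 (Bmi1ΔIEC) and loss of both genes (DKO). Neither the Cre driver nor the deleted exons are stated in the sources used here. The design text puts 2 beside the Mel18 label, 4 beside WT, 3 beside Bmi1 and 1 beside DKO, and leaves unsaid if these are numbers of mice or of samples. With 1 array a side, no difference has a replicate check and no p-value is given. In a bulk preparation, fewer cells of a type and less RNA per cell cannot be told apart.

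Pcgf2 itself was too dim to be read on these arrays. Its brighter probe set read 30.2, 39.8, 33.4 and 32.0 units, where a run of 4 intensities is here and below in the order wild type, Mel18, Bmi1 and double knockout. A number in brackets after such a run, or after a gene, is the log2 difference of the Mel18-labelled array from wild type. The other probe set read 9.5, 10.6, 12.6 and 11.5 units. Both lay near or under the floor, so they check nothing, and where these probes lie relative to the deletion is not known. Bmi1 read 116, 159.6, 334 and 432 units on its brighter probe set and 88.4, 134.8, 339.5 and 398.6 on the other, differences of 0.47 and 0.61 for the Mel18-labelled array. Those Bmi1 values are highest on the arrays labelled with Bmi1 loss, so the arrays are named by their labels throughout. Of 4 sex-linked transcripts at the floor 1 was called: Xist, made from the inactive X chromosome, read 122, 54.2, 45.5 and 611 units (-1.16). The Y-linked Eif2s3y read 246, 198, 282 and 229 and did not pass the rule.

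The preparation read as epithelium on both arrays. All 14 measured members of the epithelial marker list reached the floor, none was called, and their summed intensity was 90033 units for wild type against 84494 for the Mel18 label. Epcam, the epithelial adhesion molecule, read 10929.8, 9819, 10012 and 10481 units, and Krt19, a simple-epithelium keratin, read 12053, 9371, 9914 and 12384. Of the colon markers, Slc26a3, the chloride exchanger of surface colonocytes, read 9458, 9768, 7738 and 4262 units. Its other 3 probe sets at the floor differed by 0.14, -0.45 and -0.85. Of the 9 colon markers 1 was higher (Guca2a, 1.05) and 1 lower (Retnlb, -3.16), both described below. Transcripts of other cells were present at lower levels, and they are given beside the groups they move with.

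Most genes were nearly alike between the arrays. Of 11862 genes, 374 were higher (3.15%) and 296 lower (2.5%), together 5.65%, while 81.9% lay within 1.5-fold. Each count of list members given below is to be read beside these shares. The median difference was 0.07 on the log2 scale, with quartiles of -0.17 and 0.35. The higher side was broad and shallow and the lower side steep. At least 4-fold differences were found for 31 genes higher and 60 lower, and at least 8-fold for 8 higher and 27 lower. Of the higher genes, 286 had both values at the floor or above, as had 219 of the lower genes. For the rest, 1 of the values lies under the floor, and the size of the difference is not exact. How the balance of directions reads depends on the scaling: 55.8% of called genes were higher as deposited, 63.2% (448 higher, 261 lower) after centring each array on its median and 36.6% (234 higher, 406 lower) after centring on the genes at the floor. The median difference moved to 0.13 and -0.10 under these.

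**Figure D1:**
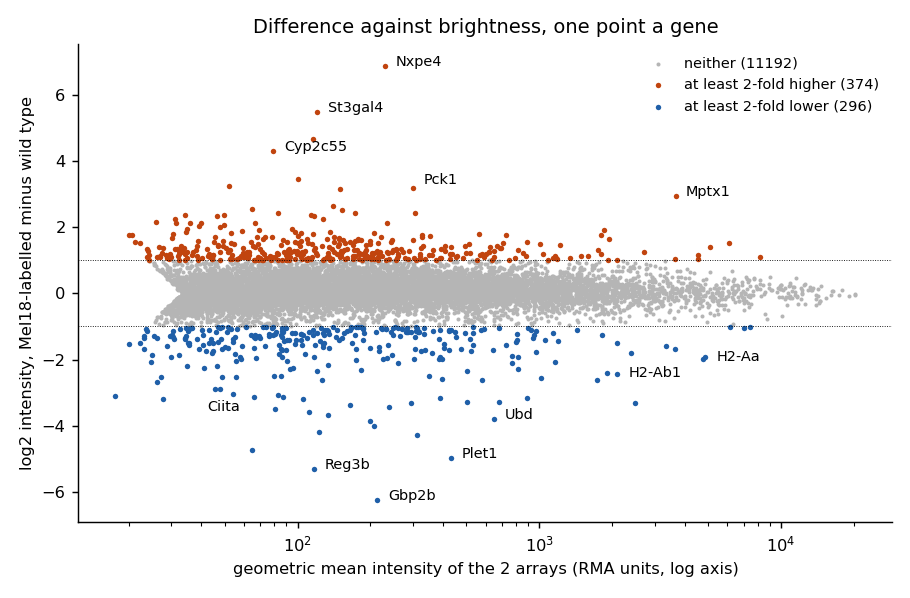
Log2 difference (Mel18-labelled minus wild type, vertical axis) against the geometric mean intensity of the 2 arrays (horizontal log axis, RMA units), 1 point for each of 11862 genes, with dotted lines at 2-fold. The 374 higher genes (red) and 296 lower genes (blue) lie mostly at low to middle brightness, and MHC class II genes such as H2-Aa are among the bright genes that were lower.

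The spread of the difference narrowed with brightness. In the dimmest 1187 genes, at 17.6 to 42.8 units, its SD was 0.59 and 8.26% of genes were called, whereas in the brightest 1187 the SD was 0.43 and 2.95% were called. Bright genes past 2-fold were therefore the rarer case. Mptx1, a secreted pentraxin of the gut, read 1328, 10229, 2929 and 6427 units and differed by 2.95. Clca4b, a secreted calcium-activated chloride channel regulator of surface epithelium, read 7839.6, 784, 274 and 5849 units and differed by -3.32.

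Several probe sets of a gene are the sole repeat of a measurement in this design, and since they read the same RNA they are not replicates. In 5022 genes with at least 2 probe sets at the floor, the pooled SD of the difference between probe sets of a gene was 0.34. The SD between genes was 0.54, taken over all 11862 genes tested and so over a larger set. The probe sets had the same sign in 58.7% of the 5022 genes. That share was 48.6% where the brightest probe set differed by under 0.25, 63.8% at 0.25 to 0.5, 73.7% at 0.5 to 1, 88.1% of 193 genes at 1 to 2 and 81.2% (13 of 16 genes) beyond 2. Of 128 such genes called higher, 36 had every probe set past 2-fold (0.717% of the 5022) and 22 had one of opposite sign. Of 81 such genes called lower, 37 had every probe set past 2-fold (0.737%) and 4 had one of opposite sign.

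**Figure D2:**
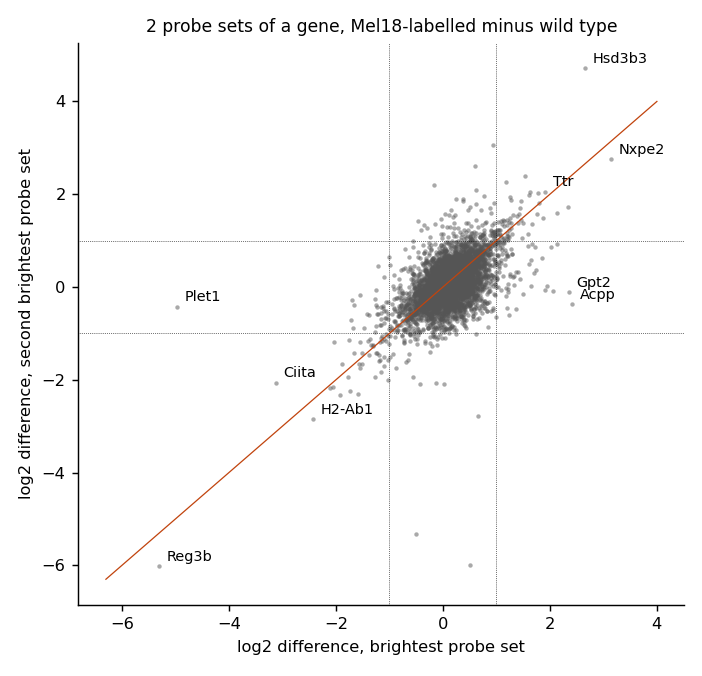
Log2 difference (Mel18-labelled minus wild type) of the brightest probe set of a gene (horizontal axis) and of its second brightest (vertical axis), 1 point for each of 5022 genes; dotted lines mark 2-fold and the red line equal values. Reg3b, H2-Ab1, Nxpe2 and Hsd3b3 lie far from 0 on both axes, while Plet1, Acpp and Gpt2 do so on the horizontal axis alone.

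Among the lower genes with consistent probe sets were the interferon-inducible and antigen-presentation genes. The 2 probe sets of Reg3b, an antibacterial C-type lectin, differed by -5.30 and -6.02. The 3 of Ciita ranged from -3.12 to -2.06, the 4 of H2-Aa from -2.99 to -1.93 and the 3 of H2-Ab1 from -2.85 to -2.43. Rsad2 (viperin, an antiviral enzyme) had 3 probe sets between -2.15 and -1.60. Rrm2, a subunit of ribonucleotide reductase, had 2 at -2.24 and -1.73. Slfn5, a Schlafen family gene, had 2 at the floor, -2.31 and -1.58, and Gbp6 2 at -1.66 and -1.51. Among the higher genes, the 4 probe sets of Ttr, the thyroxine and retinol carrier transthyretin, lay between 1.86 and 2.06, and those of Chpt1, the cholinephosphotransferase, between 1.42 and 1.95. Hdac11, a histone deacetylase, had 2 at 1.73 and 2.34, and Abcb1a, the efflux pump P-glycoprotein, had 2 at 1.44 and 1.47. The 2 probe sets of Igdcc4 at the floor differed by 1.62 and 2.04, those of Clps, a pancreatic lipase cofactor, by 1.61 and 1.97, those of the histone gene H2bc21 by 1.59 and 2.13 and those of Coq8a by 1.48 and 1.87.

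Other genes had probe sets that disagreed. Acpp, the prostatic acid phosphatase, read 132, 707, 296 and 384 units and differed by 2.42 on its brightest probe set and by -0.37 on another. For Gpt2, a mitochondrial alanine aminotransferase, 3 of 4 probe sets passed 2-fold, from 1.11 to 2.36, and the other differed by -0.11. Plet1, an epithelial surface protein, differed by -4.97 and -3.73 on 2 probe sets and by -0.42 on the other. The rule can also miss genes: 237 genes that were not called had another probe set past 2-fold with its higher value at the floor, 157 of them with one higher and 80 with one lower. The following 3 were picked after their values were seen, as the ones at least 8-fold apart. Xaf1, a pro-apoptotic interferon-induced gene, differed by 0.51 on its brightest probe set, while another read 1496, 23.6, 19.5 and 1164 units, a difference of -5.99. For St6galnac1, the sialyltransferase of goblet cell mucin, the brightest probe set gave -0.51 and another gave -5.33. For Fam241a the values were 0.93 and 3.06.

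In the upstream part of the interferon pathway most differences were negative and short of the rule. Of 19 listed ligands, receptors and signalling genes at the floor, 14 were negative, none was called higher and 2 were called lower, where 2.5% of all genes tested were lower. The median difference was -0.13, against 0.07 over all genes tested. Jak1, a kinase shared by the interferon receptors, read 413, 449, 420.4 and 430.1 units, and Ifngr1, the ligand-binding chain of the interferon-gamma receptor, differed by 0.02. The transcription factor Irf1 read 2496, 1661, 1849 and 2285 units and differed by -0.59, short of the rule. Irf7 differed by -0.86 and Socs1, an inhibitor of the JAK kinases, by -0.59. The 2 called members are themselves interferon-inducible. Usp18, which shuts off type I interferon receptor signalling, read 449.9, 114, 151 and 370.0 units (-1.98), and Stat2, a subunit of the type I interferon transcription complex, read 159.7, 60.5, 66.6 and 125 (-1.40).

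Guanylate-binding proteins and immunity-related GTPases, which coat and break the vacuoles of intracellular microbes, were the list with the lowest median outside the cell type markers. All 11 members at the floor had negative differences and 9 were called lower, with a median of -1.70. Gbp2b read 1866, 24.3, 14.4 and 2787 units, the largest lower difference in the comparison at -6.26. Gbp8 read 257, 29.4, 141 and 86.1 units and Gbp2 3534, 1246, 2993 and 1676. The Mel18-labelled array was the lowest of the 4 for Gbp8 and Gbp2, but for Gbp2b the Bmi1-labelled array read lower still. Among the GTPases, Ifi47 read 1581, 419, 981 and 892 units, Igtp 956, 286, 685 and 646 and Iigp1 1479.6, 399.7, 1703 and 811. The 2 probe sets of Iigp1 differed by -1.89 and -1.65, and the Bmi1-labelled array read above wild type. Irgm1 and Irgm2, which regulate the other GTPases, did not pass the rule at -0.72 and -0.58.

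The promoters of Gbp2, Gbp7, Igtp, Irgm2 (not called lower) and the antiviral gene Rsad2 are shown because the same short element occurs in them. They come from the RefSeq promoter table, build GRCm38.p6, and capitals mark a match to the interferon-stimulated response element, searched as GAAA, any 2 bases and GAAA on either strand. The Gbp2 stretch is chr3:142620568-142620649 on the plus strand, Gbp7 is chr3:142530247-142530328 on the plus strand, Igtp is chr11:58199486-58199555 on the plus strand, Irgm2 is chr11:58214877-58214958 on the plus strand and Rsad2 is chr12:26456527-26456608 on the minus strand. All 5 lie upstream of the annotated start, and each is written 5′ to 3′ on the strand of its gene.
Gbp2: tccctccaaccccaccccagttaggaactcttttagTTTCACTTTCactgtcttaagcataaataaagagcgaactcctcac
Gbp7: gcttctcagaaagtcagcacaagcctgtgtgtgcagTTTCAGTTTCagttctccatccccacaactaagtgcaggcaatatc
Igtp: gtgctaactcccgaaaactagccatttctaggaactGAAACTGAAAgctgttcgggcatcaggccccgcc
Irgm2: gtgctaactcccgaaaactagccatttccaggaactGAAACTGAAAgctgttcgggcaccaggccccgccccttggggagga
Rsad2: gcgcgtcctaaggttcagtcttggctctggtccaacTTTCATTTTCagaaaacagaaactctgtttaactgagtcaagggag

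Within 250 bases before to 50 after the start, 7 of 8 guanylate-binding protein and GTPase promoters found in the table held this element, as did 10 of 19 antiviral promoters. The Igtp and Irgm2 stretches are nearly identical around it, so their matches are not independent. Among all 215 lower genes with a promoter it stood in 25 (11.6%), among 297 higher genes in 4 (1.35%) and among 9057 genes that were neither in 322 (3.56%). The share was 3.99% over all 27025 promoters. The antiviral, guanylate-binding protein and GTPase, MHC class I and II, interferon-induced chemokine and neutrophil and monocyte chemokine lists were then left out. Without their members it was in 15 of 183 lower genes (8.20%). Members of the interferon signalling list, with Usp18 and Stat2 called lower, were not left out. The element of the interferon-gamma-activated STAT factor, TTCNNNGAA, was in 12.6% of lower, 7.07% of higher and 8.04% of other promoters, against 9.55% of all. The elements can overlap, and a match is a description of letters, not a site of binding. No binding was measured in these samples.

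**Figure D3:**
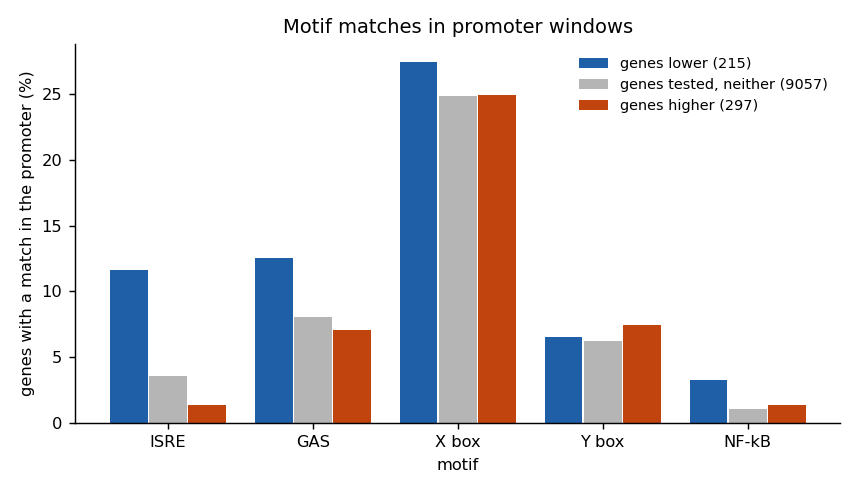
Percent of promoters (250 bases before to 50 after the start, both strands) with a match to each of 5 motifs, for genes at least 2-fold lower (blue, 215 with a promoter), neither (grey, 9057) and at least 2-fold higher (red, 297). The interferon-stimulated response element (ISRE) was in 11.6% of lower and 1.35% of higher genes, whereas the shares of the X box and Y box patterns searched differ little between the 3 groups.

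Antiviral genes had a median of -0.94, and 14 of the 29 members were lower and none higher. Ifit2, which binds foreign RNA and blocks its translation, read 1575, 161, 633 and 511 units (-3.29). Ifi27l2a, a small interferon-induced mitochondrial protein, read 540.1, 125, 169 and 354 (-2.11). Oas2, which makes the second messenger that activates RNase L, read 767, 192, 213 and 462, and Rsad2 read 2376, 569, 665 and 1958 (-2.06). The Mel18-labelled array was the lowest of the 4 for each of these. Trim30a and Ifit3 were also lower, at -1.66 and -1.56. The 2 members with positive differences were Xaf1, whose probe sets disagree as above, and Tor3a at 0.39.

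MHC class II molecules present extracellular antigen to helper T cells, and colonic epithelium makes them under interferon-gamma through the coactivator Ciita. Of 13 members of that list at the floor, 7 were lower and none higher, with a median of -1.14. Ciita read 196, 22.5, 76.7 and 103 units, under the floor on the Mel18-labelled array alone. The alpha chain gene H2-Aa read 9492, 2495, 7052 and 6719 units (-1.93). Its partner H2-Ab1 read 4882, 906, 2599 and 2907 (-2.43), and the beta chain gene H2-Eb1 read 4314, 697, 2195 and 2455 (-2.63). All 3 were still far above the floor on the Mel18-labelled array. Cd74, the invariant chain that occupies their groove during transport, read 4371, 827, 3016 and 2678 units (-2.40). H2-DMa, which loads the peptide, read 978, 161, 687 and 494 (-2.60), and H2-Oa, which restrains that loading, read 52.1, 23.7, 38.8 and 49.1 (-1.14). On each of these 7 genes the Mel18-labelled array was the lowest of the 4.

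The remaining members of the list did not pass the rule. H2-DMb2, a chain of the peptide loader, read 90.1, 45.1, 62.1 and 72.1 units and stayed just short of 2-fold, and H2-Ea differed by -0.35. The constitutive factors that bind the class II promoters differed little, with Rfx5 at -0.27, Rfxank at 0.11 and Rfxap at 0.18. Ctss, the protease that trims the invariant chain, read 4396, 5388, 5131 and 4653 units (0.29). The lower members were thus the chains, their chaperones and Ciita. The list's median was -0.59 without the probe sets whose type marks several transcripts or genes and -2.17 with the floor at the 75th percentile.

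**Figure D4:**
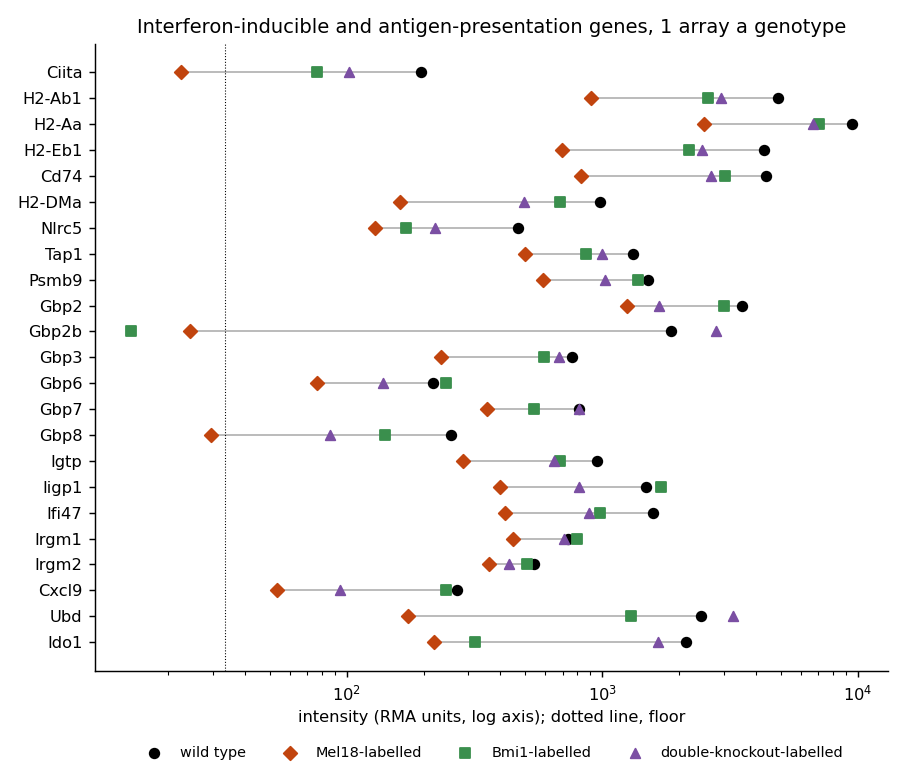
Intensity (horizontal log axis, RMA units) of 23 interferon-inducible and antigen-presentation genes on the wild-type (black circle), Mel18-labelled (red diamond), Bmi1-labelled (green square) and double-knockout-labelled (purple triangle) arrays, 1 array a genotype; the dotted line is the floor. The Mel18-labelled array is the lowest of the 4 for 22 genes, all but Gbp2b, and Ciita, Gbp2b and Gbp8 are under the floor there.

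For MHC class I antigen processing, which displays peptides from inside the cell, 5 of 17 members were lower and none higher, with a median of -0.50. Nlrc5, the coactivator of class I genes, read 468, 129, 171 and 223 units (-1.86). Tap1 and Tap2, the 2 chains of the peptide transporter, differed by -1.40 and -1.15, and the immunoproteasome subunits Psmb9 and Psmb8 by -1.36 and -1.26. The light chain B2m, which is also used as a housekeeping gene, read 11498, 6693, 10272 and 10543 units and differed by -0.78, with -0.82 on its other probe set. The chaperones Canx and Pdia3, which serve all glycoproteins, differed by 0.15 and 0.02.

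Some of the class II and class I promoters hold a Y box, CTGATTGG or its other strand CCAATCAG, the site of the factor NF-Y. For this element 3 examples are shown because they come from the same stretch of chromosome 17 as the lower genes. H2-Aa is chr17:34287831-34287910 on the minus strand, H2-Eb1 is chr17:34305769-34305848 on the plus strand and Psmb9 is chr17:34187331-34187377 on the minus strand, all GRCm38.p6 from RefSeq and upstream of the start, with the Y box in capitals.
H2-Aa: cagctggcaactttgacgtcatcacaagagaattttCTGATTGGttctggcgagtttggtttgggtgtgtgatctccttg
H2-Eb1: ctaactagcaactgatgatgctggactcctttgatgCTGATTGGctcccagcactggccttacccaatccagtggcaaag
Psmb9: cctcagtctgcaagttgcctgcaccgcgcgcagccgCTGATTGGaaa

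The Y box was in 3 of 8 class II list promoters (H2-Aa, H2-Eb1 and H2-Oa) and 5 of 14 class I promoters (Psmb9, Tap1, H2-K1, H2-D1 and Canx). Among the class I ones only Psmb9 and Tap1 were called lower. Their windows overlap, and their Y box is the same stretch of bases, counted once for each gene. Over all lower genes it was in 6.51%, over higher genes in 7.41% and over the other tested genes in 6.25%, against 4.70% of all promoters. The X box searched for, AGNNACAG or CTGTNNCT, was in 27.4%, 24.9% and 24.9% in the same order, against 28.5% of all. In the class II list it was in 2 of 8 promoters (25%). It had no match in H2-Aa, and its matches in H2-Eb1 lay downstream of the Y box. This pattern does not single out class II promoters, so its shares say nothing about their control.

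Interferon-induced chemokines and immune modulators had 7 of 16 members lower and 1 higher, with a median of -0.83. Ubd, a ubiquitin-like modifier, read 2443, 174, 1294 and 3245 units (-3.81), and Ido1, which degrades tryptophan, read 2123, 220.0, 318 and 1658 (-3.27). Cxcl9, a T cell attractant, read 269.5, 53.3, 244 and 93.9 (-2.34). Cd274, the checkpoint ligand PD-L1, read 225, 72.3, 72.3 and 136 (-1.64), and Il18bp and Tnfsf10 differed by -1.64 and -1.24. Against that direction, Il15, a cytokine that maintains intraepithelial lymphocytes, read 69.2, 154, 154 and 143 units (1.16), so it was lowest in wild type.

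Transcripts of lymphocytes moved with these groups. Of 19 measured T, NK and intraepithelial lymphocyte markers, 15 reached the floor, 14 had negative differences and 5 were lower, with a median of -0.68 (-1.55 with the floor at the 75th percentile) and summed intensities of 2180, 1218, 1425 and 3397 units. The granzymes Gzmb and Gzma, which kill target cells, differed by -1.68 and -1.56, and Itgae, the integrin that holds lymphocytes in epithelium, by -1.55. Ptprc, the pan-leukocyte CD45, read 627, 287, 330.0 and 695 units (-1.13). Of 8 B and plasma cell markers at the floor none was called, with a median of -0.20. Of 19 macrophage and dendritic cell markers at the floor 3 were lower (Fcgr3 at -1.72, Tyrobp at -1.67 and Fcer1g at -1.02), with a median of -0.45 and sums of 9346, 8474, 8312 and 9915 units. RMA gives no value of 0, so none of these markers is at 0. The part of these cells in the interferon and antigen-presentation differences was not tested.

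Neutrophil and monocyte chemokines had 7 of 15 members lower and 1 higher, with a median of -0.76 (-1.38 with the mean over probe sets and -1.47 without the multi-transcript probe set types). Ppbp, Cxcl2 and Cxcl3 bind the neutrophil receptor CXCR2. Ppbp read 334, 12.5, 19.2 and 405 units (-4.74), Cxcl2 836, 51.8, 46.5 and 413 (-4.01) and Cxcl5 350.3, 86.9, 20.3 and 202 (-2.01). The monocyte attractant Ccl7 read 318, 34.6, 57.1 and 33.1 (-3.20) and was low on the 3 knockout-labelled arrays. Ccl28, a mucosal chemokine made by colonic epithelium, read 783, 1662, 1566 and 902 units (1.09), the other direction, but its other 2 probe sets at the floor differed by -0.07 and 0.14. Ccl6 differed by 0.73. Cxcl1 differed by -0.66 on its brightest probe set and by -1.90 on another.

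The promoters of Cxcl1, Cxcl2 and Cxcl3 hold an NF-kB element, through which inflammatory signals act, and are shown with it in capitals. It was searched on either strand as GGGA or GGGG, any base and TTTCC. They are Cxcl1 at chr5:90891138-90891219, Cxcl2 at chr5:90903766-90903847 and Cxcl3 at chr5:90785992-90786073, all on the plus strand of GRCm38.p6 from RefSeq and upstream of the start.
Cxcl1: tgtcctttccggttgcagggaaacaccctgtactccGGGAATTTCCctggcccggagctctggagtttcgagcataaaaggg
Cxcl2: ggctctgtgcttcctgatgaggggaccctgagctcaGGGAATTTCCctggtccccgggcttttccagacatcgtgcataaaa
Cxcl3: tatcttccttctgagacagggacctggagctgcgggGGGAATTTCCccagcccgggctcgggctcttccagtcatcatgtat

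The NF-kB element was in 5 of 11 promoters of this list (Cxcl1, Cxcl2, Cxcl3, Ccl9 and Ccl20), and the interferon-stimulated element in 0 of 11. Of these 5 genes Cxcl2 and Cxcl3 were called lower, and the promoter of Ppbp had no match to it. The NF-kB element was in 3.26% of lower, 1.35% of higher and 1.07% of other tested promoters, and in 0.921% of all.

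Inflammatory cytokines and their receptors had 6 of 20 members lower and none higher, with a median of -0.57. Il1b, the cytokine of activated myeloid cells, read 1161, 129, 96.2 and 928 units (-3.17), and Ptgs2, the inducible cyclooxygenase, read 117, 20.2, 15 and 85 (-2.54). Osmr, the oncostatin M receptor, differed by -2.50 and Tnf by -1.32. Beside them, all 11 neutrophil markers at the floor had negative differences and 7 were lower, with a median of -1.93 and sums of 3700, 528, 390 and 3291 units. That median was -0.77 with no floor, -0.86 without the multi-transcript probe set types and -1.25 with a pseudocount of 16 units. S100a8, a calprotectin subunit, read 935, 93.4, 33.1 and 851 units (-3.32), and its partner S100a9 read 762, 52.7, 16 and 731 (-3.85). Ltf, lactoferrin, read 384, 32.1, 62.4 and 289 (-3.58). Il1b stands on both lists. Mast cell and eosinophil markers had 5 of 7 members lower and 1 higher, with a median of -1.54 (-0.88 with no floor and -0.86 with the pseudocount). The mast cell protease Mcpt2 read 1446, 234, 149.6 and 1243 units (-2.63) and Mcpt1 differed by -1.92, whereas Kit, the stem cell factor receptor, read 73.8, 189.6, 259 and 89.9 and was higher. The part of these cells in the cytokine, chemokine and antimicrobial differences was not tested.

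A part of the epithelial defence and injury genes was lower too. Among Reg lectins and other antimicrobials 9 of 21 members were lower and none higher, with a median of -0.39. Reg3b, a secreted antibacterial lectin, read 731, 18.6, 19.1 and 16063 units (-5.30). Its relative Reg3g read 523, 28.8, 20.8 and 15800.4 (-4.18), so both were under the floor on the single-knockout-labelled arrays and far above wild type on the double-knockout-labelled one. Reg4 went the other way without passing the rule, at 0.82. Retnlb, a goblet cell antimicrobial, read 2665, 298, 116 and 716 units (-3.16). Saa3, an acute-phase apolipoprotein, read 786, 72.6, 67.9 and 148 units (-3.44), and Lrg1, a secreted leucine-rich glycoprotein, read 476, 37.2, 13.1 and 59.3 (-3.68). Lpo, the lactoperoxidase of mucosal secretions, read 1384, 70.4, 60.4 and 603 units (-4.30), and Duoxa2, the maturation factor of the hydrogen peroxide source Duox2, read 123, 51.3, 44.5 and 74 (-1.26).

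The injury and repair list had 6 of 23 members lower and none higher, with a median of -0.39. Sprr2h, a cornified envelope protein of squamous epithelium, read 533, 51.1, 33.6 and 101 units (-3.38), and Sprr1a, another, differed by -2.15. Tgm2, a protein cross-linking transglutaminase, read 1594, 371, 362 and 1409 units, and its 5 probe sets at the floor had negative differences. Mmp7, a matrix protease, Itgb6, an integrin of healing epithelium, and Krt14, a basal keratin, differed by -1.92, -1.29 and -1.20. Clu, clusterin, differed by 0.82 in the other direction without passing the rule. Heat shock genes had 4 of 15 members lower: the inducible chaperones Hspa1a and Hspa1b differed by -1.92 and -1.77, with 3 probe sets of Hspa1b between -1.94 and -1.77. Of 24 unfolded protein response genes 1 was lower, where 2.5% of all genes tested were lower. It was Chac1, a glutathione-degrading enzyme induced by amino acid stress, at -1.93.

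**Figure D5:**
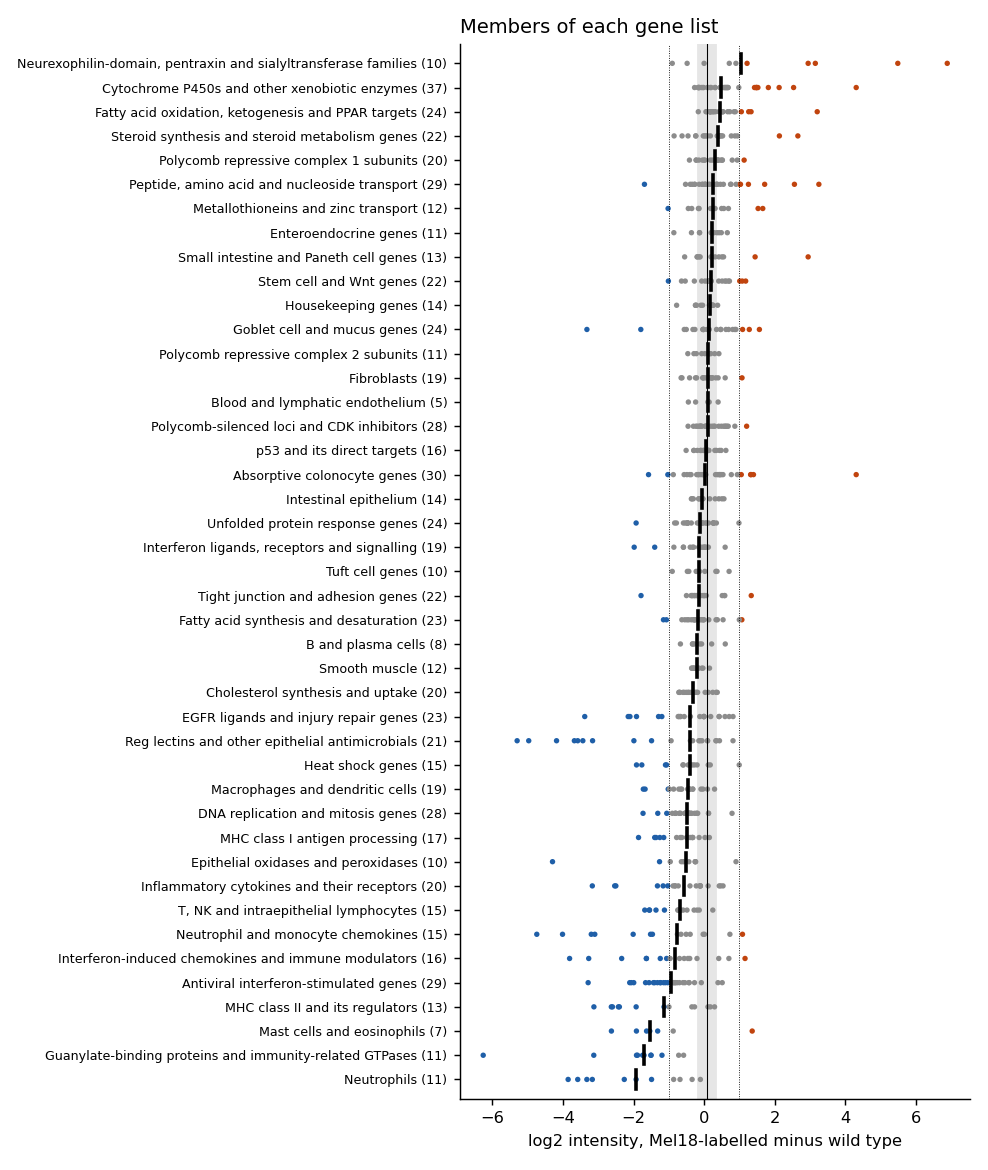
Log2 difference (Mel18-labelled minus wild type, horizontal axis) of each member at the floor, 1 row a list with its number of members in brackets, ordered by the list's median (black bar); red and blue points are at least 2-fold higher and lower, dotted lines mark 2-fold and the grey band holds the middle 50% of all 11862 genes tested. Neutrophil markers and the guanylate-binding proteins have the lowest medians (-1.93 and -1.70) and the neurexophilin-domain, pentraxin and sialyltransferase list, put together with its large values known, the highest (1.06, but 0.053 with no floor).

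Of the 8 genes at least 8-fold higher, Nxpe4, Nxpe2 and St3gal4 belong to one list and the other 5 do not. Nxpe4, a neurexophilin-domain protein made in colonic epithelium, read 21.1, 2496, 1561 and 16.6 units, a difference of 6.89. Its relative Nxpe2 read 50.1, 445, 376 and 11.1 units (3.15), with its other probe set at 2.76. Both were high on the 2 single-knockout-labelled arrays and at most 50.1 units on the others. St3gal4, a sialyltransferase that caps cell surface glycans, read 18, 808, 696 and 935 units (5.49), low in wild type alone. St3gal6 differed by 1.22 on its brightest probe set and by 0.68, -0.20 and -0.17 on the others at the floor. Of 10 members of the list that joins these families with the pentraxins, 5 were higher and none lower, with a median of 1.06 that was 0.053 with no floor and 0.62 with the mean over probe sets. The list had been put together with these large values known. Outside it, Tnfsf13os read 22.9, 588, 427 and 126 units (4.68) and Zan, the sperm protein zonadhesin, 30.2, 334, 238 and 118 (3.47), and Cyp2c55, Slc15a2 and Pck1 are given below. Tmprss13, a membrane serine protease, Tmem25 and Edn2, an endothelin, differed by 2.44, 2.37 and 2.26. Among the largest lower differences outside the lists was Prss22, a serine protease, at 271, 24.1, 19.5 and 167 units (-3.49).

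Several enzymes that handle foreign compounds and steroids were higher and none was lower. Of 37 cytochrome P450s and other xenobiotic enzymes at the floor 9 were higher and none lower, with 28 positive differences and a median of 0.47. Cyp2c55, a colonic P450, read 17.8, 353, 213 and 124 units (4.31), and its neighbour Cyp2c65 read 19, 82.9, 60.1 and 360.0 (2.12). Aadac, an arylacetamide deacetylase, read 63.5, 368, 419 and 230.3 units (2.53), and the P450 Cyp2f2 read 109.9, 387, 498 and 32.1 (1.82). Among 22 steroid genes 2 were higher, where 3.15% of all genes tested were higher. Both are 3-beta-hydroxysteroid dehydrogenases and neighbours on chromosome 3. Hsd3b3 read 55.8, 352, 327 and 103 units (2.65), with 4.72 on its other probe set, and Hsd3b2 read 15, 65.7, 39.6 and 13.9 (2.13). Cyp11a1, which starts steroid synthesis from cholesterol, did not pass the rule at 0.87.

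Fatty acid oxidation, ketogenesis and PPAR target genes were nearly all positive by small amounts. Of 24 members at the floor 23 had positive differences and 4 were higher, with a median of 0.44, and 57.9% of all genes tested had positive differences. Pck1, the first committed enzyme of gluconeogenesis, read 98.7, 908, 821 and 153 units (3.20). Fabp2, the intestinal fatty acid binding protein, read 248, 623, 569 and 621 (1.33), and Ppara, the nuclear receptor that drives this programme, read 48.6, 101, 115 and 60.8 (1.05). Acaa2, the mitochondrial thiolase, differed by 1.26 and Acadm, the medium-chain dehydrogenase, by 0.85. In contrast, 15 of 20 cholesterol synthesis and uptake genes had negative differences, none past the rule, with a median of -0.32. Of 23 fatty acid synthesis genes 17 were negative, with the malic enzyme Me1 (-1.15) and the desaturase Scd1 (-1.07) lower and the phosphatidate phosphatase Lpin1 (1.07) higher.

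Transport and nitrogen metabolism genes had 6 of 29 members higher and 1 lower, with a median of 0.26. Slc15a2, a peptide transporter, read 16.8, 160.0, 180.0 and 210.0 units (3.25), low in wild type alone. The pyrimidine enzymes differed in opposite directions. Dpyd, which starts pyrimidine breakdown, read 26.8, 158, 211 and 79.3 units (2.56), and Upp1, which cleaves uridine, read 6549, 2027, 3478 and 4343 (-1.69). The metallothionein Mt1, which binds zinc and copper, read 3592, 10359, 8427 and 11726 units (1.53). Mt2 read 1093, 3456, 2651 and 3043 (1.66), and Mt4, a squamous epithelial form, differed by -1.02. Their list's median was 0.25 and turned to -0.12 with the mean over probe sets in place of the brightest, so the list as a whole has no settled direction.

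Differentiated epithelium was mixed. Among 30 absorptive colonocyte genes 5 were higher and 2 lower, with a median of 0.03 that changes sign when arrays are centred on the genes at the floor or quantile normalised. Mep1a, a brush border protease, and Slc16a1, the butyrate transporter, differed by 1.40 and 1.32, and Guca2a, guanylin, read 2542, 5266, 3782 and 13501 units (1.05). Prdm1, a transcription factor of fetal gut that also acts in lymphocytes, was lower at -1.58. Of 24 goblet cell genes 3 were higher and 2 lower: Creb3l4 (1.56), the mucin core enzyme Gcnt3 (1.28) and the kallikrein Klk1 (1.09) against Clca4b (-3.32) and Clca4a (-1.79). Klk1 had 4 probe sets, of which the 2 brightest differed by 1.09 and 1.07 and the others by 0.22 and -0.18. No member of the enteroendocrine (11 at the floor) or tuft cell (10) lists was called. Cldn4 and Cldn15, tight junction claudins, differed in opposite directions at -1.79 and 1.33.

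The median of replication genes was negative and that of crypt genes slightly positive. Over all genes tested the median was 0.07, and 57.9% were positive. The sign of so small a median can depend on the scaling, since centring moved the median over all genes to 0.13 or -0.10. Of 22 stem cell and Wnt genes 17 were positive and 3 higher, with a median of 0.18: the matricellular protein Smoc2 (1.18), Sox4 (1.08) and the Wnt inhibitor Znrf3 (1.01). Only 1 of the 5 probe sets of Sox4 at the floor was past 2-fold. Lgr5, the crypt stem cell receptor, read 21.7, 35.1, 93.6 and 18.8 units, close to the floor. Cd44, a surface receptor of crypt cells and leukocytes, was lower at -1.01. Of 28 replication and mitosis genes 25 were negative, 3 lower and none higher, with a median of -0.50. Rrm2 read 396, 119, 175 and 89.1 units, and Mcm5, a replicative helicase subunit, read 714, 287, 481 and 143 (-1.31). Another helicase subunit, Mcm3, differed by -1.06. The 3 positive members were Ccnb2 (0.79), Plk1 (0.12) and Birc5 (0.12), while other mitotic genes such as Top2a (-0.47), Aurka (-0.42) and Cdk1 (-0.41) were negative without passing the rule.

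Few Polycomb genes or loci that the complex silences were called, at shares near the 3.15% higher and 2.5% lower over all genes, so the counts show nothing particular to them. Of 20 complex 1 subunits at the floor 1 was higher, Cbx8, a chromodomain subunit that read 28.7, 63, 53.8 and 41.4 units (1.13), with a median of 0.31 for the list. The related RING finger subunits Pcgf1 and Pcgf6 differed by 0.94 and 0.79. None of 11 complex 2 subunits was called; its methyltransferase Ezh2 read 223, 246, 307 and 161 units. Of 28 Hox, developmental and CDK inhibitor genes at the floor, out of 45 measured, 1 was higher and none lower, with a median of 0.10 that turns to -0.06 when arrays are centred on the genes at the floor. That gene was Cdkn2b, the inhibitor p15, which read 282, 648, 491 and 817 units (1.20). Cdkn2a, the cell cycle inhibitor locus that the complex is best known to silence, read 10.6, 11.7, 11.9 and 662 units, under the floor on both arrays compared here, and is named after its values were seen. Cdkn1b, the inhibitor p27, differed by 0.61 and Hoxd10 by 0.68. None of 16 p53 target genes was called, with 8 positive and 8 negative. Fibroblast markers had 1 of 19 higher (Fap, 1.07), with a median of 0.10, and smooth muscle markers none of 12, with a median of -0.21.

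Lower genes lay next to each other on the chromosomes. Of 296 lower genes 93 (31.4%) had an adjacent tested gene that was also lower, where 4.70% of all tested genes have such a neighbour. Of 373 placed higher genes 28 (7.51%) had a higher neighbour, against 6.18%. Runs of at least 3 adjacent lower genes numbered 9 and held 39 genes, and no such run was found among higher genes. Many of these runs are families of similar genes, whose probes can read each other's transcripts. Without the probe sets whose type marks several transcripts or genes the share of lower genes was 29.3%. The share over all tested genes was not computed for that setting.

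The longest run held 7 genes on chromosome 17, from 34182030 to 34316674 (GRCm38.p6): Psmb9, Tap1, Psmb8, Tap2, H2-Ab1, H2-Aa and H2-Eb1, the class I processing and class II genes of the MHC. On chromosome 14, from 55949809 to 56388551, lay the mast cell proteases Mcpt-ps1, Mcpt1, Mcpt2 and Mcpt4 with Gzmb and the proton pump gene Atp12a. Chromosome 3 held 3 runs. They were the Sprr2d, Sprr2h, Sprr2k and Sprr1a genes (92339140 to 92485881), the Gbp7, Gbp3, Gbp2b and Gbp2 genes (142530336 to 142638008) and 6 Clca genes from Clca3a1 to Clca4a (144729677 to 144975045). The last 2 lie within one 5 Mb window, in which 10 of 19 tested genes were lower, where the median window had 5% called either way. Ccl2, Ccl7 and Ccl8 on chromosome 11 and Clec4n, Clec4d and Clec4e, myeloid lectin receptors on chromosome 6, made shorter runs.

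The region around the targeted gene did not differ in this way. Pcgf2 lies on chromosome 11 from 97688821 to 97702434 (GRCm38.p6), and of 179 tested genes within 5 Mb of it 5 were higher and 5 lower (5.59%), against 5.65% over all genes. Within 2 Mb the count was 4 of 75 (5.33%).

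The other knockout-labelled arrays are compared with the same wild-type array, so the following values share it and are set side by side. The 374 higher genes, chosen on the Mel18-labelled array, had median differences of 1.25 there, 1.34 with the Bmi1 label and 0.38 with the double-knockout label. For the 296 lower genes the medians were -1.40, -1.29 and -0.31. The medians were thus of like size on both single-knockout-labelled arrays. With the Bmi1 label 285 of the higher and 190 of the lower genes also differed at least 2-fold the same way. Fewer genes, 24 higher and 48 lower ones, were under 1.5-fold there. The lower ones were led by antigen-presentation and interferon-inducible genes: H2-DMa, Cd74, Cxcl9, H2-Aa, Iigp1, Igtp and Gbp3 were among the 10 with the largest differences, and the other 3 were Myl7 (-1.94), the T cell gene Ms4a4b (-1.65) and Wdfy1 (-1.54, with 4 probe sets from -1.75 to -0.11). The list medians in the order Mel18, Bmi1 and double knockout were -1.70, -0.36 and -0.57 for guanylate-binding proteins and GTPases and -1.14, -0.46 and -0.32 for MHC class II. Neutrophil markers ran otherwise, at -1.93, -2.62 and -0.11. Of the 10 higher genes by the same rule, Col8a1, a short-chain collagen, read 51.1, 185, 73.1 and 73.7 units and Gal3st2, a mucin sulfotransferase, 426, 1108, 474 and 875. Rps6, a ribosomal protein, read 248, 664, 351 and 235 units, and Ang, angiogenin, 395, 1347, 528 and 999, with its 3 probe sets between 1.43 and 2.04. The other 6 were Acy1, Rab33a, Clec14a, Glb1, Dgkh and Rps4l, at 1.26 to 1.47, and the other 2 probe sets of Dgkh differed by 0.71 and 0.25.

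On the double-knockout-labelled array, Gbp2b and Ubd read above wild type, Reg3b far above it, and Nxpe4 at 16.6 units was back near its wild-type value of 21.1.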

How the data were processed

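RNA of EDTA-released colon epithelium was measured on Affymetrix Mouse 430 2.0 arrays, 1 array a genotype. For each probe set the authors deposited a linear intensity, produced by RMA in Affymetrix Expression Console per the submitters' processing notes, which carry no versions. The values run from 3.25 to 22803 units, with array medians of 34.2 (WT), 32.9 (Mel18), 32.1 (Bmi1) and 34.1 (DKO). With so few arrays, precision is limited by their number. The log2 of each intensity was taken without a pseudocount or further scaling (Python 3.11.15, pandas 2.3.3, numpy 2.4.6), in code tested on simulated data. That simulation put large shifts into bright genes with less spread than on these arrays. It checked the code and not the reliability of the calls.

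GEO's platform annotation gave 34945 probe sets 1 symbol and 932 several, and 9160 were not listed and are unnamed here; 34741 of the first were matched to the RefSeq gene table of GRCm38.p6. Promoters for 9569 of the 11862 genes tested came from the RefSeq promoter table of that build. The genes named were drawn, by rule, from the 15 largest differences each way with a plain symbol, the 12 each way with the most alike large probe sets, the 10 each way with both values at the floor, the 10 each way under 1.5-fold on the Bmi1-labelled array, every MHC class II member and up to 8 members of each list, of which the text gives a part; outside it are members of runs of neighbours, the genes whose promoters are described, Duox2, the list members Ifngr1, Irgm1, Irgm2, Cxcl1, Cdkn2a, Birc5, Top2a, Aurka and Cdk1, and the 3 genes picked on a second probe set, all chosen after their values were seen. The comparison and the gene lists were chosen with earlier results of these data known. The 11 alternatives concerned the probe set, floor, scaling, size rule and pseudocount.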

Additional observations from a re-analysis of the deposited data

How the results depend on the processing

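The 375 gene differences and 44 list medians were taken again under the 11 alternatives, leaving out the rule of at least 2 probe sets. Among gene differences 3563 stayed within a spread of 0.34 of the main value, the pooled SD between probe sets of a gene. A further 135 moved and 1 reversed, where only a called gene could count as reversed. Among list medians 416 stayed by the same measure, 15 moved and 1 reversed, and the cause was not tested for those that did not stay. A median that changed sign within that spread was counted as having stayed. This was so for the absorptive colonocyte list and for the Hox, developmental and CDK inhibitor list. A changed floor or size rule leaves a gene's difference as it is, and centring shifts every gene alike, by less than that spread. These settings could not have moved a gene, so the number that stayed does not measure stability. Genes higher and lower numbered 374 and 296, with 55.8% higher. They numbered 243 and 195 with the floor at the 75th percentile, 1402 and 745 (65.3% higher) at 1.5-fold, 76 and 112 (40.4%) at 3-fold, 36 and 37 (49.3%) with at least 2 probe sets all past 2-fold, and 241 and 229 (51.3%) with a pseudocount of 16 units, the floor and larger fold simply admitting fewer genes. Centring on the array median gave 63.2% higher, and centring on genes at the floor gave 234 higher and 36.6%. The percentage with all probe sets of a gene with the same sign was 47.6% with no floor, 69.5% with the 75th percentile, 60.7% with median centring and 55.6% without probe sets whose type marks several transcripts or genes. Lower genes with a lower neighbour were 24.6% with no floor and 16.2% with at least 2 probe sets, and higher genes with a higher neighbour 27.6% at 1.5-fold and 0% with at least 2 probe sets. The share of all tested genes with such a neighbour changes with each of these rules and was not computed for them. These percentages therefore cannot be set against the 4.70% and 6.18% of the main rule.

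With the mean over probe sets, list medians were -2.26 for neutrophil markers, -1.49 for MHC class II, -1.38 for neutrophil and monocyte chemokines, 0.62 for the neurexophilin-domain, pentraxin and sialyltransferase list and -0.12, reversed, for metallothioneins and zinc transport. With no floor they were -0.77 (neutrophil), -0.88 (mast cell and eosinophil) and 0.053 (neurexophilin-domain list). The 75th percentile gave -1.55 for T and NK markers and -2.17 for MHC class II, and the pseudocount gave -1.25 (neutrophil), -0.86 (mast cell and eosinophil) and -0.80 (MHC class II). Without the multi-transcript probe set types the medians were -0.86 (neutrophil), -0.59 (MHC class II) and -1.47 (neutrophil and monocyte chemokines), and Gpt2 reversed to -0.11. No paired analysis was possible because each genotype has 1 array.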

Other observations

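The 10092 probe sets with several gene symbols or none were not used above. Of these, 3565 reached the floor on at least 1 of the 2 arrays, and 67 were at least 2-fold higher and 174 at least 2-fold lower on the Mel18-labelled array (6.76% either way). Lower probe sets thus outnumbered higher ones there, whereas among named genes higher ones were more numerous.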
